A study of Mus musculus with 17 samples.

Results

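Within a chromatin accessibility map of mouse B cells, 214 regions outside promoters were accessible in naive B cells and in plasma cells. They were much less accessible in germinal center B cells. Accessibility was measured by ATAC-seq, in which the transposase Tn5 inserts sequencing adapters into open DNA, and each value was the number of reads in a region per 1000000 reads in all accessible regions of the library (RPPM). The 214 regions were selected on the Dnmt3-sufficient control libraries (C) alone, from the 50648 regions that were not annotated as promoters and did not lie on chrX, chrY or chrM, out of 66177 regions in all. A region was kept where the C means of both naive B cells (nB) and bone marrow plasma cells (BMPC) were at least 5 RPPM, at least 3 times the C mean of germinal center B cells (GCB), and within 2-fold of each other. Of 9435 regions that met the terms on nB and BMPC, 214 met the GCB term too. As a reverse set, 1108 regions were open only in GCB, and 6497 regions had C means within 2-fold across all 3 cell types.

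The libraries of Dnmt3-deficient mice (KO), which the rule did not use, served as the samples in which the regions were tested. All mice carried Dnmt3a fl/fl and Dnmt3b fl/fl, and the KO mice differed from the C mice by 1 allele of a Cre recombinase that is active in B lineage cells. nB (B220+ Fas- GL7-) came from lymph nodes of unimmunized mice. GCB (B220+ Fas+ GL7+ PE+) came from draining lymph nodes 30 days after immunization with the antigen phycoerythrin (PE) in complete Freund's adjuvant. BMPC (CD138+) came from bone marrow, also 30 days after immunization, and their label does not name PE binding. Each GCB library pooled 2 mice. Mice, of a mixed B6;129S4 background, were 8 to 12 weeks old when the experiments began. There were 3 C and 2 KO libraries of nB, 2 C and 4 KO libraries of GCB, and 3 C and 2 KO libraries of BMPC. By the labels every nB library was male, every BMPC library female, and GCB libraries of both sexes were present, so sex and cell type cannot be told apart between nB and BMPC. The deletion itself was not checked from these accessibility values.

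Germinal centers are the sites where activated B cells divide fast, mutate their antibody genes and are selected for antigen binding, and some of the survivors become long-lived plasma cells in the bone marrow. Naive B cells and bone marrow plasma cells are both largely non-dividing, and transcription factors of the Klf2 and Foxo families are known for holding lymphocytes in that state. Accessible regions away from promoters often hold enhancers, which transcription factors such as RUNX, ETS and IRF proteins bind through short DNA motifs.

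The middle 200 bases of 8 of the regions are given here as examples, because they stand for the patterns described further on: the region with the highest level (Maml3), those near Sub1, Pik3cd and Entpd1 with some of the largest falls, and those near genes of lymphocyte quiescence, homing and identity (Klf2, Klf3, Ccr9, Bach2). All are on the forward strand of mm9, and capitals mark matches, on either strand, to the motif letters GAAAC (IRF), TGTGGT (RUNX), CCACACCC (KLF) and GGAAGT or CAGGAAG (ETS).
Maml3, chr3:51906407-51906606: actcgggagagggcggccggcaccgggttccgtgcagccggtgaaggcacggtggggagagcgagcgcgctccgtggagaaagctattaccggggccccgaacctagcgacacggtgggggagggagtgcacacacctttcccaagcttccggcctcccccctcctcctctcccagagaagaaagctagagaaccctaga
Sub1, chr15:11943990-11944189: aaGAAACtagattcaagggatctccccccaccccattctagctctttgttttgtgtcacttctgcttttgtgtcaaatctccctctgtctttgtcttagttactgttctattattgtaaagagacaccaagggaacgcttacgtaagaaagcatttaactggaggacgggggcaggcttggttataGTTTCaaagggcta
Pik3cd, chr4:149032212-149032411: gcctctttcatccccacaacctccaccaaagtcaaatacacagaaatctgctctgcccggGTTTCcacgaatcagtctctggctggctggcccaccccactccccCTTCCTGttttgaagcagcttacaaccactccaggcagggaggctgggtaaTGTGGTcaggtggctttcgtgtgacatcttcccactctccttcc
Entpd1, chr19:40761890-40762089: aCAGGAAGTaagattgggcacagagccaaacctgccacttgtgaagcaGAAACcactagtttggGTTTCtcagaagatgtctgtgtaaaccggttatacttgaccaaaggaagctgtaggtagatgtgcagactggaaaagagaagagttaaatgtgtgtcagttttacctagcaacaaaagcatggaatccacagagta
Klf2, chr8:74827541-74827740: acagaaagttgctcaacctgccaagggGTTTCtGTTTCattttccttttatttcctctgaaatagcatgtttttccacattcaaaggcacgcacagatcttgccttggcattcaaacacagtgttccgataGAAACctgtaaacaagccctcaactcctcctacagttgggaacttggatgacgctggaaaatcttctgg
Klf3, chr5:65197442-65197641: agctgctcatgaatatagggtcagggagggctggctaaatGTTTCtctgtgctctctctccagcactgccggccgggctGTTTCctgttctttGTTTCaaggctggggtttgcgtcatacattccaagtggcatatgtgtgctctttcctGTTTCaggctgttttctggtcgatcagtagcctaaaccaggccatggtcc
Ccr9, chr9:123663611-123663810: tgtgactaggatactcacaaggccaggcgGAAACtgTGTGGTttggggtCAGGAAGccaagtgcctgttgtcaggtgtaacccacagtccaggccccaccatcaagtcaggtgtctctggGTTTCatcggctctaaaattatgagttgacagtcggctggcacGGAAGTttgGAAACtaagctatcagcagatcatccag
Bach2, chr4:32422786-32422985: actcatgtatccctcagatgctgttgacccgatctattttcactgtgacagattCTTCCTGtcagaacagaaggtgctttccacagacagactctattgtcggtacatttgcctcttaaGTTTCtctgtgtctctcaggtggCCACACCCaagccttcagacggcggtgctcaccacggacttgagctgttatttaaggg
GAAAC matches numbered 4 in the Klf3 sequence, 3 in Klf2, 3 in Ccr9, 2 in Entpd1, 2 in Sub1, and 1 each in Pik3cd and Bach2, and the GC-rich Maml3 sequence (66% G + C, 16 CpG) held none of the marked motifs.

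Reads in accessible regions numbered 4104875 to 6079018 in nB, 907959 to 2280954 in GCB and 5357687 to 8232313 in BMPC libraries, so the closed cell type was also the least deeply sequenced. In RPPM, 3 reads in KO GCB F1, the shallowest library, equalled 3.30 RPPM. The share of reads on chrM, which is part of the RPPM total, was 7.43% to 10.1% in GCB and 2.56% to 4.59% in the other libraries. In the 6497 regions open in all 3 cell types, themselves chosen by their C means, the median was 12.6 to 14.2 RPPM in every library, the KO libraries included. At 2 of the 214 regions, both on chr7, C nB 3, C BMPC 3 and both C GCB libraries stood apart from the other 12 libraries, and their values are given further on. Markers of the labelled cell types were in part open where the labels put them. The promoter of Gcsam, a germinal center gene chosen after its values were seen, had C and KO means of 21.0 and 18.0 RPPM in GCB, 0.580 and 0.542 RPPM in nB, and 5.49 and 3.86 RPPM in BMPC. The promoter of Tnfrsf17 (BCMA, a plasma cell survival receptor) had C and KO means of 20.0 and 16.5 RPPM in BMPC and a mean of at most 3.56 RPPM elsewhere. That of Pax5, the B cell identity factor, had 40.3 and 42.4 RPPM in nB and under 3 RPPM in BMPC. Other listed genes did not mark their cell type: the promoter of Bcl6, a germinal center factor, had C means of 53.8 RPPM in nB and 20.0 RPPM in GCB. Those of the germinal center genes S1pr2 and Fas had 39.3 and 31.2 RPPM in C BMPC, above 26.2 and 20.6 RPPM in C GCB, and that of Irf4, in the plasma cell list, had 57.4 RPPM in C nB and 44.1 RPPM in C BMPC. Of 12 T cell genes, 4 (Lck, Lat, Cd28, Tcf7) had a promoter region. Their sum was 44.1 to 53.0 RPPM in nB, 26.0 to 43.0 RPPM in GCB and 67.2 to 74.0 RPPM in BMPC. The sum was thus lowest in GCB, but by gene only Lck was lowest there in both C and KO means. Cd28 had C means of 2.60, 5.23 and 27.8 RPPM in nB, GCB and BMPC, and Lat had KO means of 22.3, 12.8 and 8.99 RPPM. One of the 214 regions lay in the T cell gene Cd3d. The study's methods list anti-CD90.2, a T cell stain, in the channel by which cells were removed from the sorts. The part of T cells in the results was not tested. The 4 NK cell promoters summed to 7.54 to 9.05 RPPM in nB, 11.7 to 20.9 in GCB and 10.9 to 18.6 in BMPC, and the 5 myeloid promoters to 15.6 to 19.5, 16.8 to 29.7 and 24.3 to 30.5 RPPM. The 5 plasma cell promoters present, of 8 genes, also summed lower in GCB (113 to 131 RPPM) than in nB (164 to 181 RPPM) and BMPC (219 to 235 RPPM), and 1 of the 214 regions lay in the plasma cell gene Irf4. The 8 B cell promoters summed to 334 to 374 RPPM in nB, 214 to 267 RPPM in GCB and 91.8 to 115 RPPM in BMPC, and the 7 germinal center promoters to 179 to 203, 210 to 267 and 182 to 200 RPPM.

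Across the 214 regions the C medians were 14.5 RPPM in nB, 3.19 RPPM in GCB and 14.7 RPPM in BMPC, which describes the rule. In the KO libraries the medians were 14.3 RPPM in nB, 4.57 RPPM in GCB and 14.8 RPPM in BMPC, so the closed state of GCB was also present there. In such bulk libraries, fewer cells with an open region and less opening per cell cannot be told apart. By library, the KO GCB medians were 5.51 (F1), 5.09 (F2), 4.38 (F3) and 4.19 RPPM (M1), against 14.8 and 13.9 RPPM in the KO nB and 15.1 and 14.5 RPPM in the KO BMPC libraries. Each KO GCB median was under each KO nB and KO BMPC median, and the 3 female libraries and the male library were alike low. The median region held 5 to 10 reads in a KO GCB library. Of the 214 regions, 25 to 82 held 3 reads or fewer there, so the level of 1 closed region in 1 library was known only roughly.

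**Figure D1:**
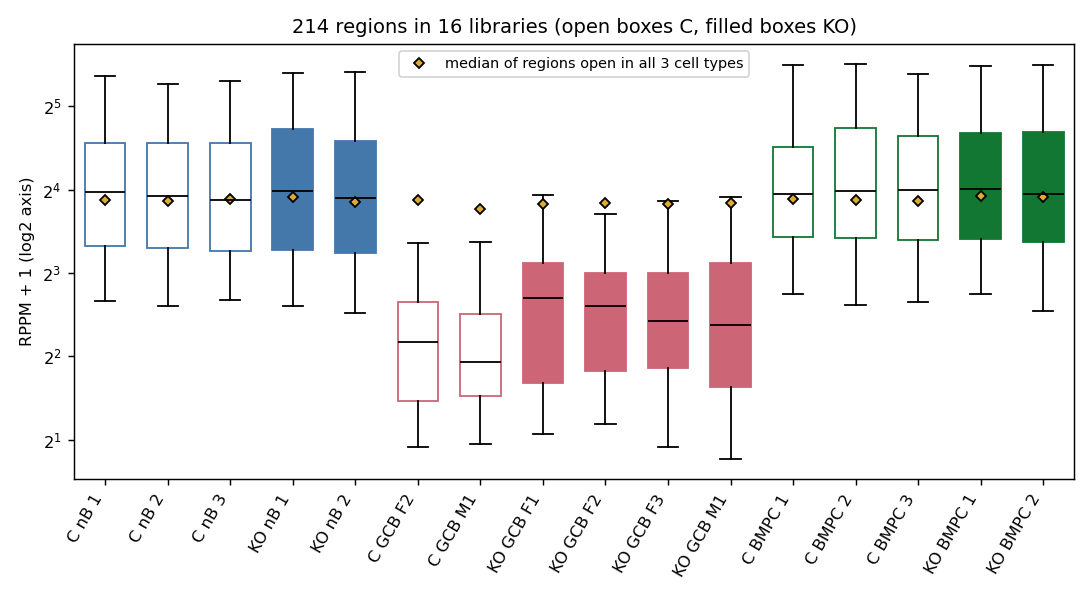
Boxes show the 214 regions in each library (x axis, open for C and filled for KO) as RPPM + 1 on a log2 axis, with the median, the quartiles, and whiskers at the 5th and 95th percentiles; diamonds give the median of the 6497 regions open in all cell types. The 6 GCB boxes lie low, with medians of 2.81 to 5.51 RPPM, and the diamonds at 12.6 to 14.2 RPPM.

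The first question was how many of the regions were closed in GCB libraries that had no part in choosing them. In the fit of the 8 KO libraries, 153 of the 214 regions (71.5%) had fallen at least 2-fold from nB to GCB with an adjusted p no larger than 0.01, against 6.63% of all 66177 regions. Between GCB and BMPC, 158 regions (73.8%) were lower in GCB, against 10.5% of all regions. Both held for 130 regions (60.7%), against 1.57% of all regions and 3.64% of the 9221 regions that met the rule except for its GCB term. The median fitted change was -1.47 for GCB against nB and -1.53 for GCB against BMPC on the log2(RPPM + 1) scale, against medians of 0.12 and 0.03 over all regions and of -0.17 and -0.19 over those 9221 regions. Every KO GCB library lay under every KO nB and KO BMPC library at 176 of the 214 regions (82.2%), against 11.4% of all regions. Without KO nB replicate 1, 88 regions passed against nB and 81 passed both, and when 5 RPPM was added before the logarithm, instead of 1 RPPM, 77 passed both.

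The ratios were smaller in KO than in C. The median region was 4.27 times higher in nB and 4.49 times higher in BMPC than in GCB in the C libraries that the rule used, and 3.07 and 3.13 times higher in the KO libraries. The whole rule, applied to KO means, was met by 78 regions (36.4%), the 3-fold term by 83 and a 2-fold term by 160, and the KO GCB mean was the lowest of the 3 cell types at 207. Applied to every region, the same rule on KO means found 162 regions, of which 78 (48.1%) were among the 214. Of the 84 regions not called in both contrasts, 23 passed against nB only, 28 against BMPC only and 33 against neither, and at 26 of those 33 the KO GCB mean was the lowest of the 3 cell types. The count also went with the level: 62 of the 72 regions with the highest KO levels in nB and BMPC (at least 20.0 RPPM on average) passed both, against 23 of the 72 with the lowest (at most 10.8 RPPM).

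**Figure D2:**
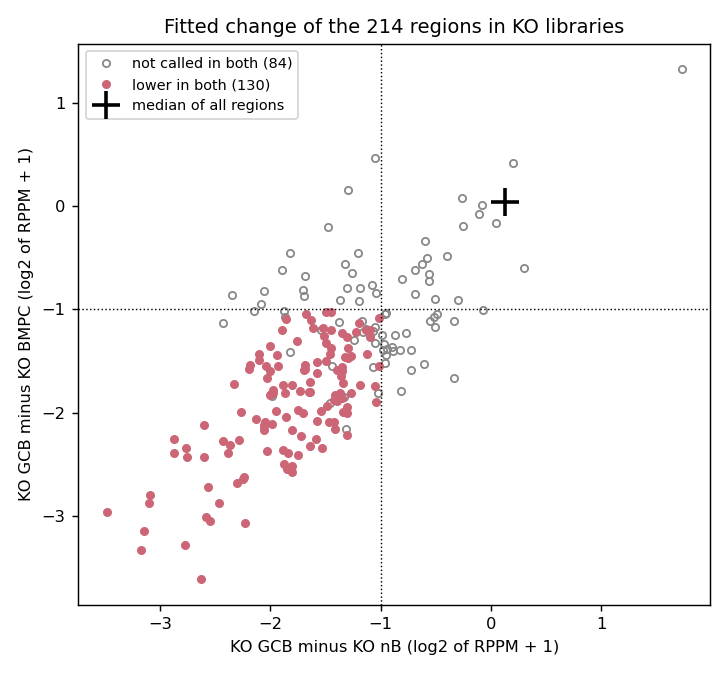
Each circle is 1 of the 214 regions, with the fitted change from nB to GCB (x axis) and from BMPC to GCB (y axis) in the KO libraries, both in log2 of RPPM + 1; dotted lines mark a 2-fold fall and the cross the median of all regions. The 130 filled circles, which passed both tests, fill the lower left, and 1 circle at the upper right is the Olfr69 region.

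KO nB and KO BMPC remained alike at most of these regions, with means within 2-fold of each other at 198 of the 214. The median change from nB to BMPC was 0.07 (0.08 over all regions), and 5 of the 214 passed as lower in BMPC, against 14.8% of all regions. The rule required C means within 2-fold of each other. These 5 lay near Gpr132, Cd3d, Ssbp2, Os9 and Erich4. The fit in limma called 0 as higher in BMPC, against 15.6% of all regions, with 20 at an unadjusted p under 0.05, while both edgeR tests called 1 and DESeq2 called 0. As lower in BMPC, 22 had an unadjusted p under 0.05 in limma, each edgeR test called 14 and DESeq2 called 9. Near Gpr132, whose product is a receptor for lysolipids, the KO levels were 31.4 and 32.9 RPPM in nB. They were 3.50 to 11.0 RPPM in GCB and 10.1 and 11.6 RPPM in BMPC (BMPC minus nB -1.49 ± 0.36 (SE), adjusted p = 0.0022). The KO BMPC mean of 10.8 RPPM lay between the GCB mean of 5.99 RPPM and the nB mean of 32.1 RPPM. BMPC overlapped the top of the GCB range.

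In what follows, distances to a transcription start are signed, with a minus for upstream. At an intergenic region -17959 bases from the start of Sub1 (chr15:11943722-11944456), the gene of a transcriptional coactivator, KO levels were 62.3 and 70.1 RPPM in nB, 55.3 and 52.3 RPPM in BMPC, and 5.51, 6.36, 10.1 and 6.29 RPPM in GCB. No KO GCB library came near the others, and the change was -3.09 ± 0.21 from nB (adjusted p = 2.7e-09) and -2.79 ± 0.21 from BMPC (adjusted p = 4.8e-09). In Pik3cd, which encodes the catalytic subunit p110δ of the PI3-kinase used by lymphocyte receptors, a region over an exon, 4680 bases from the start (chr4:149031878-149032744), had 39.5 and 37.4 RPPM in KO nB, 25.3 and 28.0 RPPM in KO BMPC, and 3.30, 1.91, 1.75 and 3.50 RPPM in KO GCB. The GCB values amounted to 3 to 5 reads each, and the changes were -3.48 ± 0.26 (adjusted p = 1.0e-08) and -2.97 ± 0.26 (adjusted p = 4.0e-08).

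The largest KO fall of all, taken as the smaller of the falls from nB and BMPC, was at an immunoglobulin light chain locus. The region chr16:19200014-19200931, for which the deposited table names no gene, overlaps an exon and UTR of the lambda constant gene Iglc2 in GENCODE. It had 29.6 and 29.3 RPPM in KO nB, 36.3 and 29.9 RPPM in KO BMPC and 1.10 to 4.46 RPPM in KO GCB, falls of 3.18 ± 0.30 and 3.33 ± 0.30 (adjusted p = 2.2e-07 and 7.0e-08). Lambda constant genes are near copies of each other, so reads may be shared between them and the values are uncertain. A pair of regions 662 bases apart lay between the GENCODE genes Gm11029 and Ighm, the constant gene of IgM, in the heavy chain locus. At the first of them (chr12:114657424-114657700) KO levels were 16.9 and 11.8 RPPM in nB, 11.2 and 12.9 RPPM in BMPC and 0 to 1.75 RPPM in GCB, where the fall was 3.10 ± 0.38 from nB and 2.88 ± 0.38 from BMPC (adjusted p = 4.2e-06 and 6.2e-06). Antibody loci thus gave 2 of the 10 largest falls.

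Sub1 and Pik3cd were among these 10 too. The others lay near Cpn2, a carboxypeptidase subunit (chr16:30233945-30234538), in an intron of Entpd1 (described further on), and near Nmd3, an export adaptor of ribosomal subunits (chr3:69503435-69504228). They also lay in an intron shared by Gm10684 and Scn2b (chr9:44929877-44930977), near Stoml1 (chr9:58113210-58113637), and on chr8:7650473-7650817 far from any gene. In Cpn2, KO GCB had 0 to 1.91 RPPM against 15.4 to 18.6 RPPM in the other KO libraries. In Nmd3, KO GCB had 1.27 to 4.19 RPPM against 15.2 and 31.3 RPPM in nB and 43.9 and 44.8 RPPM in BMPC. The Gm10684 region was also among the 5 highest, at 37.8 to 56.4 RPPM in KO nB and BMPC and 3.82 to 7.71 RPPM in KO GCB. At the chr8 region KO GCB held a single read in 4 libraries (0.438 RPPM in F3), against 2.96 to 9.64 RPPM in the other KO libraries, and no fold is given.

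Maml3, a coactivator of Notch signalling, held the highest level of all, in an intronic region 1646 bases from its start (chr3:51905732-51907281). The C libraries had 86.3 to 99.6 RPPM in nB, 14.1 and 16.4 RPPM in GCB and 41.0 to 55.4 RPPM in BMPC. KO levels were 96.7 and 88.6 RPPM in nB, 14.3, 7.64, 14.5 and 11.9 RPPM in GCB, and 65.6 and 65.9 RPPM in BMPC. The region lost accessibility in GCB and stood between the nB and GCB levels in plasma cells, with changes of -2.88 ± 0.20 from nB and -2.39 ± 0.20 from BMPC (adjusted p = 4.6e-09 and 2.5e-08). Cd3d, a subunit of the T cell receptor complex, and Nrg2, a growth factor gene, completed the 5 highest with Sub1 and Gm10684. In Cd3d (chr9:44794089-44795443) the KO levels were 72.1 and 64.6 RPPM in nB, 9.79 to 19.7 RPPM in GCB, and 33.2 and 28.0 RPPM in BMPC, and it did not pass against BMPC (-0.95 ± 0.22), being under 2-fold. In Nrg2 they were 46.7 and 49.2, 20.2 to 22.9, and 47.5 and 53.2 RPPM.

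Several genes held more than 1 of the regions. The 190 regions with an annotated gene fell on 166 genes, of which 145 had 1 region, 19 had 2, Mtdh had 3 and Entpd1 had 4, and 24 regions had no gene. Entpd1 encodes CD39, an enzyme on the cell surface that breaks down extracellular ATP. Of its regions, 3 lay in introns, at chr19:40758505-40758986, chr19:40761635-40762343 and chr19:40782494-40783468, and 1 lay between genes at chr19:40836358-40837148. The nearest transcription start to that last region was that of Ccnj. In order, the 4 KO GCB libraries had 1.40 to 3.95, 1.10 to 3.07, 8.81 to 10.2 and 0.877 to 2.80 RPPM. The KO nB libraries had 23.2 and 26.2, 17.3 and 21.5, 40.0 and 40.8, and 7.57 and 7.68 RPPM. The KO BMPC libraries had 15.4 and 16.1, 26.3 and 29.5, 31.7 and 39.9, and 8.26 and 10.1 RPPM. At each of the 4 regions the groups were apart and both tests passed, with falls of 1.75 to 2.88 from nB and 1.83 to 3.28 from BMPC. The promoter of Entpd1 itself had 15.6 RPPM in KO nB, 7.66 RPPM in KO GCB and 27.0 RPPM in KO BMPC, a fall from BMPC of 1.74 and from nB of 0.98, just under 2-fold.

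Mtdh, a regulator that binds RNA and transcription factors, had 3 regions upstream, at -15037, -32110 and -35649 bases from its start (chr15:33996813-33997436, chr15:33979860-33980363 and chr15:33975943-33976824). KO GCB libraries had 5.09 to 8.39, 2.80 to 5.51 and 7.71 to 9.21 RPPM there, and every KO nB and BMPC library lay higher, from 9.84 RPPM at the middle region to 41.8 RPPM at the far one. All 3 regions passed both tests, with changes between -1.29 and -2.09. At the promoter the means were 74.6, 55.2 and 59.9 RPPM in KO nB, GCB and BMPC, and the change to GCB was -0.43 and -0.12, so neither promoter change passed while all 3 upstream regions did.

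Genes of lymphocyte quiescence held 6 of the regions, among 342 non-promoter regions at listed genes, beside 214 among all 50648. They lay on 5 of 26 listed genes: Klf2, Klf3, Klf13, Foxo1 and Foxo3. Klf2 keeps naive lymphocytes quiescent and controls their homing, and its region at -14866 bases, over an exon and UTR of the GENCODE gene Gm10282 (chr8:74827186-74828094) had 14.6 and 18.1 RPPM in KO nB, 5.51 to 6.36 RPPM in KO GCB, and 22.2 and 17.2 RPPM in KO BMPC. In an intron of Klf3, a repressor of the same family, the region chr5:65197324-65197759 had 16.1 and 19.5, 2.20 to 5.09, and 19.6 and 17.7 RPPM. Both passed in both contrasts: Klf2 changed by -1.35 ± 0.23 and -1.60 ± 0.23 (adjusted p = 1.4e-04 and 1.7e-05) and Klf3 by -2.06 ± 0.28 and -2.12 ± 0.28 (adjusted p = 1.4e-05 and 6.2e-06). The Foxo3 region, in an intron (chr10:41993611-41993798), had 12.2 and 12.6 RPPM in KO nB, 10.6 and 15.3 RPPM in KO BMPC, and 1.10, 6.36, 1.75 and 8.39 RPPM in KO GCB. It passed narrowly (adjusted p = 0.0091 and 0.0065), and lost the call in 9 of 19 alternatives. The region assigned to Klf13 by its nearest start, 121503 bases away and next to Otud7a (chr7:70947607-70948252), had 5.26 to 14.6 RPPM in KO GCB. Its KO nB libraries had 7.57 and 15.4 RPPM and its KO BMPC libraries 21.3 and 22.0 RPPM, and it did not pass both tests. The region annotated to Klf13 itself (chr7:71129049-71129631) had 6.74 and 5.31 RPPM in KO nB. It had 0.877 to 4.41 RPPM in KO GCB, and 5.34 and 4.85 RPPM in KO BMPC. Over all 342 non-promoter regions at genes of the list, 10 (2.92%) passed as lower in both contrasts and 4 as higher in both, against 1.17% and 6.58% of the 50648 non-promoter regions.

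Among receptors for homing and positioning, Ccr9, Gpr132 and Itga4 held 4 of the regions. Ccr9, the receptor for the chemokine of the small intestine and thymus, had a pair of intronic regions 7764 bases apart (chr9:123663311-123664109 and chr9:123671873-123672578), the second also over an exon of the pseudogene Gm17020. The first had 37.2 and 41.5 RPPM in KO nB, 24.4 and 24.8 RPPM in KO BMPC and at most 8.39 RPPM in KO GCB, and the second 26.8 and 27.9, 24.7 and 28.0, and 5.73 to 7.69 RPPM. Both passed both tests, with changes of -1.54 to -2.19 and adjusted p-values of at most 3.3e-06. The Ccr9 promoter was not lowest in GCB, with KO means of 5.57, 10.7 and 11.1 RPPM in nB, GCB and BMPC. Its change to GCB was 0.79 from nB and -0.08 from BMPC, and neither passed. The Itga4 region (integrin α4; chr2:78960846-78961503) lay at -134079 bases from its start and had 14.3 RPPM in KO GCB F1 but 2.55 to 4.82 RPPM in the other KO GCB libraries, against 12.1 to 15.2 RPPM in the other cell types. It did not pass (adjusted p = 0.027 and 0.018). Of 265 regions of the list, 4 were in the set, beside 214 of all 50648 non-promoter regions. In the list 5 (1.89%) passed as lower in both contrasts and 26 (9.81%) as higher in both. Over all non-promoter regions these shares were 1.17% and 6.58%.

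Transcription factors of lymphoid cells gave 4 regions of 889, at Bach2, Irf4, Elf1 and Irf1, a share close to the 214 of all 50648 non-promoter regions. Bach2 represses the plasma cell programme, and a region in its intron (chr4:32422370-32423400) had 21.1 and 18.7 RPPM in KO nB, 24.5 and 19.2 RPPM in KO BMPC and 3.07 to 5.73 RPPM in KO GCB (-1.98 ± 0.25 and -2.11 ± 0.25, adjusted p = 6.6e-06 and 2.0e-06). Irf4 is needed for plasma cells, and a region over an exon and UTR near its 3′ end (chr13:30858683-30859389) had 27.0 and 21.5, 7.01 to 10.5, and 16.6 and 16.6 RPPM in KO nB, GCB and BMPC. It fell by 1.30 ± 0.22 from nB, and by 0.80 ± 0.22 from BMPC, under 2-fold. The Irf1 region, over an exon of Gm12216 and 15038 bases from the Irf1 start (chr11:53599014-53599520), passed both tests (-1.49 and -1.33), and the Elf1 region (chr14:79952511-79953030) passed against BMPC only (-1.08 against -0.51 from nB). Of 889 regions of the list, 11 (1.24%) were lower in both contrasts and 35 (3.94%) higher in both. Over all non-promoter regions these shares were 1.17% and 6.58%.

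Traf2, an adaptor of the TNF receptor family, was the only gene with a region of the set among 26 in the list of survival factors and BAFF/APRIL receptors. In its intron (chr2:25389436-25390596) KO nB had 47.4 and 46.2 RPPM, KO BMPC 43.4 and 43.1 RPPM and KO GCB 13.2, 12.1, 13.6 and 16.8 RPPM, so the region kept a clear level in GCB while falling by 1.69 ± 0.17 and 1.58 ± 0.17 (adjusted p = 4.2e-07 and 5.8e-07). In the list of NF-κB, AP-1 and immediate early genes, Fos, a subunit of AP-1, had a region at -26289 bases (chr12:86787805-86788561) with 26.8 and 24.2, 8.33 to 14.0, and 30.6 and 33.0 RPPM in KO nB, GCB and BMPC. Nfkbiz, an atypical IκB protein, had one 119521 bases from its start (chr16:55698490-55699106) with 9.05 and 14.0, 1.10 to 3.51, and 9.60 and 6.16 RPPM. Both passed both tests. At all regions of these lists, 5 of 186 survival regions (2.69%) and 8 of 214 NF-κB and AP-1 regions (3.74%) were lower in both contrasts. Higher in both were 8 (4.30%) and 6 (2.80%). Over the 50648 non-promoter regions, 1.17% were lower in both and 6.58% higher in both. The lists of B cell receptor signalling, of germinal center and proliferation genes and of interferon genes held 0 of the 214 regions, among 309, 137 and 211 regions. With 214 of 50648 non-promoter regions in the set, a count of 0 in lists of this size is not read as a difference. Lower in both contrasts were 3, 3 and 4 regions of these lists (0.971%, 2.19% and 1.90%). In the germinal center list 24 regions (17.5%) were higher in both.

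**Figure D3:**
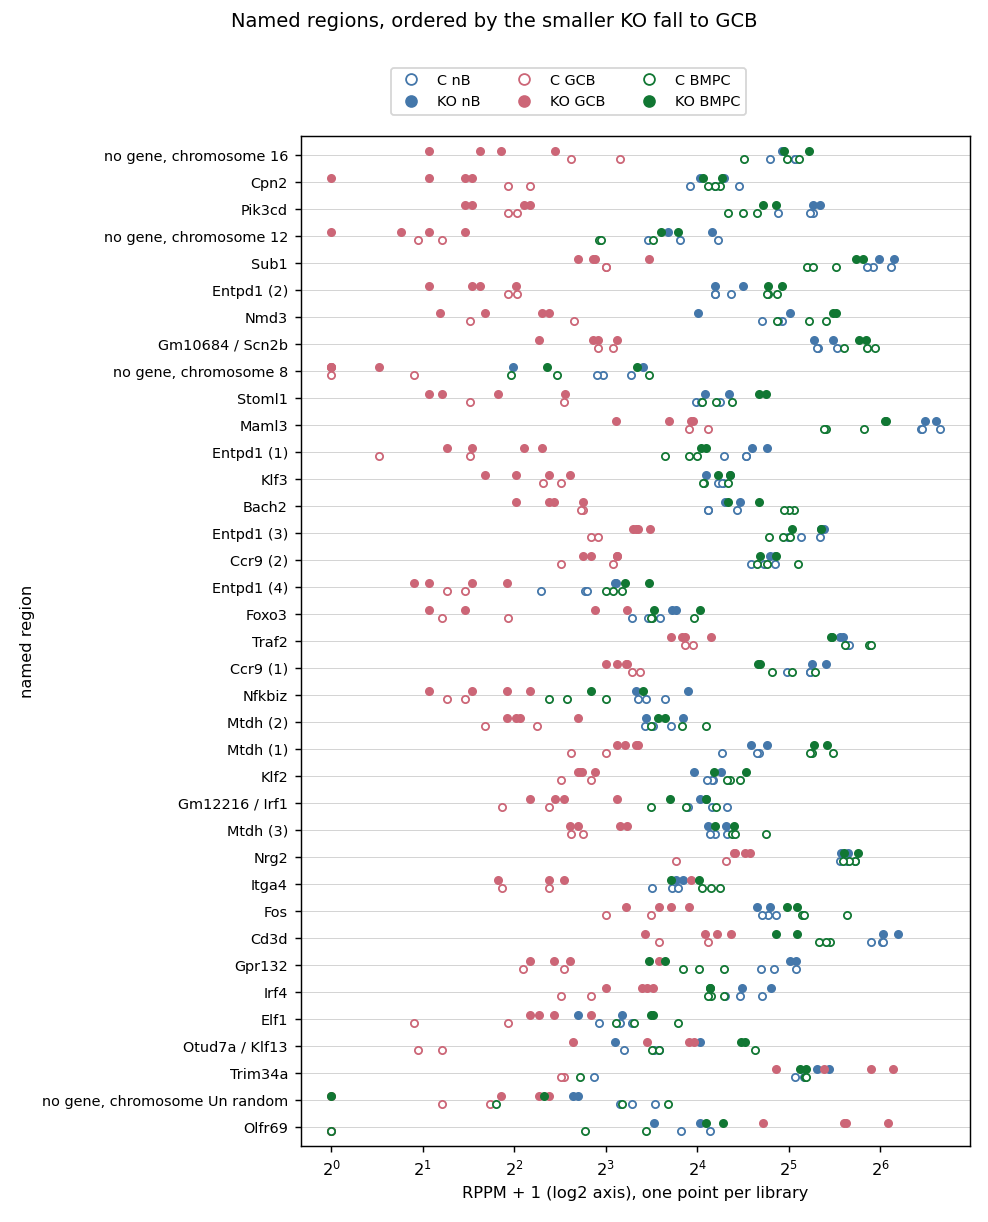
Each row is a named region and each point a library, as RPPM + 1 on a log2 axis, open for C and filled for KO; several regions of a gene are numbered along the chromosome, and a slash joins the host and the nearest gene. GCB points stand to the left in most rows, and at Olfr69, in the lowest row, the 4 KO GCB points stand at the right.

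Promoters, which the rule left out, were a separate readout for the same genes. Of the 166 genes, 141 had a promoter region, and the medians of the KO means were 48.0 RPPM in nB, 28.2 RPPM in GCB and 50.9 RPPM in BMPC. Lower in KO GCB than in both other cell types were 24 of the 141 (17.0%), against 3.11% of 11496 genes. The median change was -0.66 from nB and -0.64 from BMPC, against -0.24 and -0.33 over all those promoters. Of 96 promoters at least 10 kb from the nearest region of the set at the same gene, 12 (12.5%) passed, and of 45 closer ones 12 (26.7%). The 24 included Klf3, Maml3, Sub1, Gpr132 and Stoml1 among the genes described, and also Cobll1, Zmynd11, which reads a histone mark of transcribed genes, S100a10, a partner of annexin, Jarid2, Sema4d and Ski. In Klf3 the KO means were 88.6 RPPM in nB, 25.8 RPPM in GCB and 86.0 RPPM in BMPC, in S100a10 they were 43.0, 9.63 and 43.4 RPPM, and in Cobll1 98.1, 17.2 and 74.3 RPPM. Other promoters stayed open: Pik3cd had 51.5, 48.5 and 61.0 RPPM, and Bach2 117, 50.0 and 83.6 RPPM, a change of -1.22 and -0.74 that did not pass against BMPC. Among the quiescence genes with a region of the set, the promoters of Klf2, Foxo1, Foxo3 and Klf13 did not pass. Their changes from nB and from BMPC were -0.92 and -0.44 in Klf2 and -0.87 and -0.76 in Foxo1. In Foxo3 they were -0.91 and -0.73, and in Klf13 -0.17 and 0.18.

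**Figure D4:**
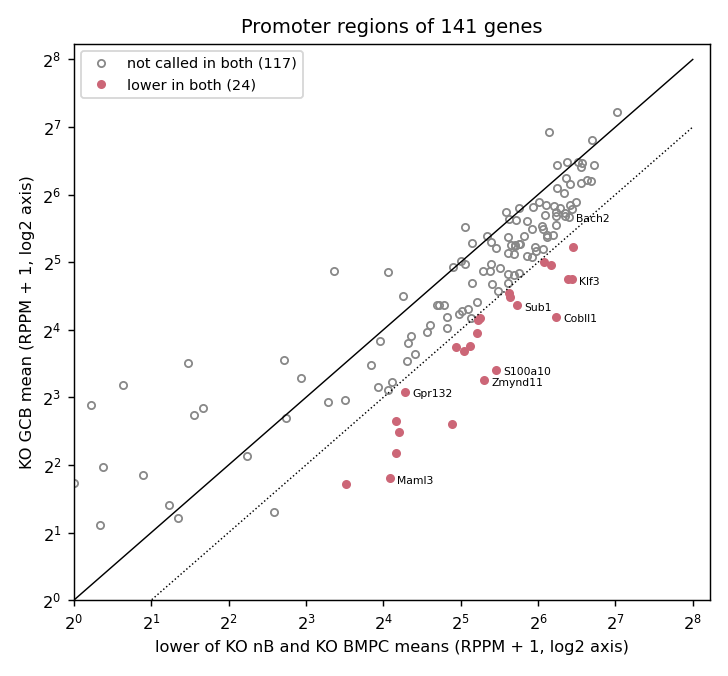
Promoter regions of the 141 genes are placed by the lower of their KO nB and KO BMPC means (x axis) and their KO GCB mean (y axis), as RPPM + 1 on log2 axes; the solid line marks equality and the dotted line a 2-fold lower value. The 24 filled points lie under the dotted line, and most others lie between the lines.

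The 214 regions had a median width of 676.5 bases (188 to 1619), against 467 bases over the non-promoter regions and 666 bases over the regions that met the rule except for its GCB term. Introns held 92 (43.0%), exons 21 (9.81%) and the space between genes 101 (47.2%), close to the 45.4%, 9.92% and 44.7% of all non-promoter regions. The median distance to a transcription start was 16533 bases, against 17744 bases over the non-promoter regions, 11797 bases over those that met the rest of the rule and 21926 bases over the set open only in GCB. In 28 cases the next region of the set on the chromosome lay within 50 kb. Among chromosomes, chr13 held 17 of 2496 regions (0.681%) and chr1 3 of 3759 (0.0798%), and 3 regions lay on unplaced sequence, for which no sequence was read.

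Sequence was read for 211 regions, and motif matches in their middle 300 bases were counted on both strands and set beside the 9173 regions with sequence that met the rule except for its GCB term, all 50388 non-promoter regions with sequence, and the 1078 such regions open only in GCB. GAAAC, the core of the motif bound by interferon regulatory factors, was present in 152 of the 211 (72.0%), against 57.7%, 59.6% and 47.1%. TGTGGT, the RUNX core, was present in 77 (36.5%), against 25.9%, 27.6% and 21.9%, and CCACACCC, bound by KLF factors, in 15 (7.11%), against 3.44%, 3.42% and 2.50%. All 3 were thus commonest in the 214 regions and rarest in the set open only in GCB. The octamer ATGCAAAT, bound by Oct-2, went the other way, with 3 of 211 (1.42%), 3.63%, 4.62% and 11.3%. Over whole regions its share was 6.16%, against 6.34% of all non-promoter regions and 13.0% of the set open only in GCB. AGGGGGC, a part of the CTCF motif, was in 5.69%, 10.2%, 7.57% and 5.94%. Over whole regions its share was 12.8%, above the 10.4% of all non-promoter regions, which were narrower than the set. It was under the 17.7% of the regions of like width that met the rest of the rule. GGAAGT, a core of the ETS factor PU.1, was in 35.1%, 30.9%, 31.6% and 27.6%. Over whole regions, in the same order of sets, GGAAGT was in 49.8%, 50.8%, 40.9% and 34.6%. GAAAC was then in 85.8%, 81.2%, 71.1% and 57.7%, a smaller gap to the regions that met the rest of the rule.

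CAGCTG (E-box) was in 24.6% of the 211 and 21.6% of all non-promoter regions, and TGANTCA (AP-1) in 11.8% and 10.4%. GGAATTTCC (NF-κB) was in 0.948% and 0.306% and TGTTTAC (FOXO) in 5.21% and 4.54%. TCCCNNGGG (EBF1) was in 6.16% and 5.65%, CTAAAAATA (MEF2) in 1.42% and 1.05%, TTCNNNGAA (STAT) in 10.9% and 9.84% and CG in 93.8% and 94.1%. The median G + C content was 49.3%, against 47.7% over all non-promoter regions and 50.0% over those that met the rest of the rule. A further 3 longer forms were chosen after these shares were seen, so their shares are only described. AAACCACA, a longer RUNX motif, was in 26 of 211 (12.3%), against 4.50% of the regions that met the rest of the rule and 2.78% of those open only in GCB, and CAGGAAG, a longer ETS motif, in 31.8%, 20.3% and 14.3%. GAAANNGAA, the tandem form to which IRF proteins bind as pairs, was in 16.6%, 13.6% and 9.55%, a smaller gap than for GAAAC alone. GAAAC and TGTGGT can share bases, which happened in 7 of the 211 regions, and counting only GAAAC matches clear of TGTGGT left 71.6% against 57.1%.

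**Figure D5:**
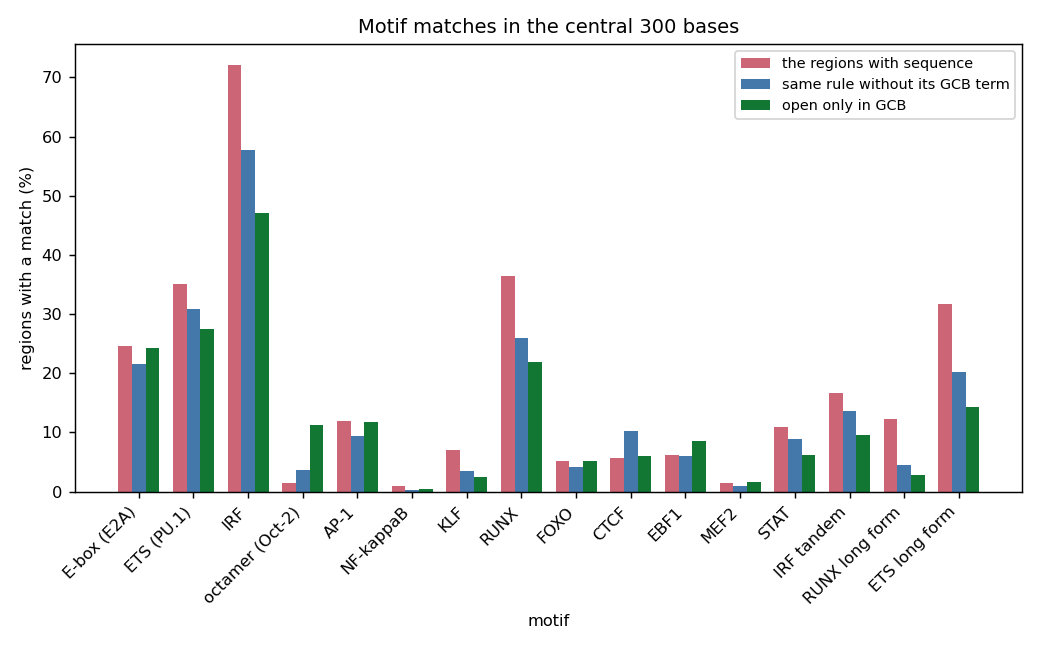
Bars give the share of regions (%, y axis from 0) with at least 1 match to each motif (x axis) in the middle 300 bases, for the 211 regions with sequence, the 9173 that met the rule except for its GCB term, and the 1078 open only in GCB. IRF, KLF, RUNX and the longer RUNX and ETS forms stand highest in the first set, and the octamer stands highest in the last.

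Within the 211 regions, those with a KLF match had median KO ratios of 4.57 (nB to GCB) and 3.92 (BMPC to GCB) and passed both tests in 13 of 15 cases, against ratios of 3.02 and 3.09 and 117 of 196 without one. Those with a match were also more open in KO nB and BMPC, with a median level of 21.5 RPPM against 14.3 RPPM. For GAAAC the ratios were 3.10 and 3.27 with a match and 2.88 and 2.94 without, and both tests passed for 94 of 152 (61.8%) and 36 of 59 regions (61.0%). Regions with a RUNX match passed in 45 of 77 cases (58.4%) and those without in 85 of 134 (63.4%). Among IRF, RUNX and KLF, the gap in calls was widest for KLF. A higher share with a match was not particular to KLF: it was 73.0% against 55.5% for GGAAGT, 73.1% against 57.9% for the E-box and 72.0% against 60.2% for AP-1. The share was lower with a match for NF-κB, FOXO, CTCF, EBF1, STAT and the longer RUNX and ETS forms. None of these differences within the set was tested.

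At 3 of the 214 regions, libraries of the same C group differed widely. In the region nearest to Olfr69 (chr7:110910726-110911857), C nB 3, C BMPC 3 and both C GCB libraries had 0 RPPM. C nB 1 and 2 had 13.2 and 16.6 RPPM and C BMPC 1 and 2 had 9.88 and 5.84 RPPM. The KO libraries had 10.5 and 15.4 RPPM in nB, 18.5 and 16.1 RPPM in BMPC, and 48.5, 66.8, 25.4 and 47.5 RPPM in GCB. In the region within Trim34a, an antiviral gene (chr7:111436181-111437176), the same 4 libraries had 4.68 to 6.33 RPPM and the other 12 had 28.1 to 69.4 RPPM. Neither region was closed in KO GCB: at Olfr69 KO GCB was higher by 1.73 ± 0.26 than nB (adjusted p = 4.6e-05), and at Trim34a the changes were 0.20 ± 0.24 and 0.41 ± 0.24 (adjusted p = 0.53 and 0.16). Among all 66177 regions, 1 other was at least 3 times higher in each of those 12 libraries than in each of these 4, and at least 5 RPPM in each of the 12, in Trim12a nearby (chr7:111463205-111464519), with 3.16 to 4.40 against 41.6 to 94.8 RPPM. At a region overlapping Ipcef1 (chr10:3349148-3349653), the C libraries had 9.01, 10.2 and 0.186 RPPM in nB, 2.20 and 0.468 RPPM in GCB, and 2.21, 2.37 and 10.6 RPPM in BMPC. Its KO levels were 0.329 and 4.92 RPPM in nB, 0.636 to 2.10 RPPM in GCB, and 14.3 and 2.24 RPPM in BMPC, and it did not pass in either contrast. None of these 3 regions was among the 130 that passed as lower in both contrasts, so that count was the same without them. KO GCB was not the lowest mean at 7 regions in all, and the one nearest to these lay on unplaced sequence, with 0 to 4.19 RPPM in KO GCB, 5.26 and 5.51 RPPM in KO nB and 4.01 and 0 RPPM in KO BMPC.

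Between the genotypes, the counts are given as description, since the C libraries chose the regions. In GCB, 4 of the 214 were higher in KO than in C, against 0.0317% of all regions, and 0 were lower, against 0% of all regions. The edgeR quasi-likelihood test called 1 as higher, the likelihood ratio test 3 and DESeq2 0, and none of these tools called a lower one, with 73 higher and 4 lower at an unadjusted p under 0.05 in limma. All 4 lay on chr7: the Olfr69 and Trim34a regions, the Otud7a region, with 1.13 ± 0.27 RPPM in C (SD, n = 2) and 10.9 ± 4.33 RPPM in KO (SD, n = 4), and chr7:113787705-113788793, with 5.83 ± 2.95 and 15.7 ± 4.51 RPPM. The KO GCB mean was above the C GCB mean at 170 of the 214, from which nothing is read because low C values were what the rule sought. In nB, limma called 0 in either direction, as for all regions (0% and 0%), with 2 at an unadjusted p under 0.05 and 0 calls by edgeR and DESeq2. In BMPC, limma called 0 as higher and 0 as lower in KO, against 0.0907% and 0.0136% of all regions, with 25 at an unadjusted p under 0.05, while each edgeR test called 1 higher and 4 lower and DESeq2 called 0 higher and 1 lower. The median KO minus C change was 0.03 in nB, 0.38 in GCB and 0.01 in BMPC on the log2(RPPM + 1) scale.

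At the 3-fold limit, the regions just inside were those of Cd3d, with a smaller C ratio of 3.00, and of Dnah8 (chr17:30794938-30795618), with C means of 8.03, 2.02 and 6.07 RPPM in nB, GCB and BMPC, also 3.00. Just outside were regions at Sdc4 (chr2:164266457-164267216), with 25.8, 8.63 and 37.5 RPPM, and at Camk2b (chr11:5918292-5919073), with 12.2, 4.06 and 12.1 RPPM. In KO GCB the Dnah8 region, inside, had a mean of 5.81 RPPM against 7.02 and 10.9 RPPM in nB and BMPC, and the Sdc4 region, outside, 7.27 RPPM against 29.5 and 30.2 RPPM.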

How the data were processed

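ATAC-seq reads were mapped to mm9 by the authors, peaks were called in each sample with MACS2 at q of 0.01 and merged, and the deposited values are reads per region divided by the library's reads in all regions, times 1000000 (RPM, named RPPM). The submitters' processing notes name Bowtie 1.1.1, Picard 1.127, MACS2 2.1.0.20140616 and edgeR 3.12.1. Columns with the authors' fold changes and p-values for 9 comparisons were not used. Of 17 labelled samples, 16 have a column, and 1 KO BMPC sample that the authors removed was not analysed here. Sequencing batches are not given in the sources used here.

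The 214 regions and the gene, marker and motif lists were chosen with earlier results of these data known. The main test was limma 3.58.1 (R 4.3.3) on log2(RPPM + 1) of the 8 KO libraries, with a trend of variance on mean, no filter on low values, and Benjamini-Hochberg adjustment over all 66177 regions; such fold changes understate those of low regions. Calls needed an adjusted p of at most 0.01 and at least 2-fold. KO against C was fitted on all 16 libraries. By the study's text, each GCB library pooled 2 mice and nB and BMPC had as many mice as libraries. All RPPM values were whole multiples of the value of 1 read within a tolerance of 0.01, and edgeR 4.0.16 and DESeq2 1.42.0 were run on these reads as alternatives. The floor was 3 reads, which covers counting error only. Regions were named by fixed rules: genes with 3 or more regions, the 10 largest falls in KO with no overlap between groups, up to 4 regions per gene list, the 5 highest, the 3 least closed in KO, and those at the 3-fold limit. The 5 regions called between nB and BMPC, the 4 called between genotypes, the Trim12a region and the promoters were named after their values were seen. Sequences were read from NCBIM37 (mm9) and gene overlaps from GENCODE vM1 of the same build; distances and exon, intron and promoter labels are the table's own. KO and C GCB share the names F2 and M1, but nothing shows that these pair the samples, and their deviations from the group means correlated by 0.0363 and 0.0638. Other scalings, filters, pseudocounts, tools and single libraries left out were tried. The scripts were tested on simulated data, where no unchanged region was called and most changed regions of low level were missed. Fitted falls into the shallow GCB libraries came out slightly too large in that simulation. Some items are not reported here.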

Additional observations from a re-analysis of the deposited data

Results flagged for a closer look

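Among the 4 KO GCB libraries, 38 named regions were searched for a library whose gap to the nearest of the others was, relative to the range, above Dixon's 95% critical value, which chance alone passes in about 1 of 20 groups, and 2 regions had one. At the middle Mtdh region KO GCB F1, the shallowest library, had 5.51 RPPM and the others 2.80 to 3.18 RPPM; 5.51 RPPM there is 5 reads. At the chr8 region far from any gene KO GCB F3 had 0.438 RPPM, 1 read, and the others had 0 RPPM.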

How the results depend on the processing

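In the KO libraries, 19 of 21 alternatives left the number of regions lower in GCB than in both other cell types within 1.5 times of 130; it was 77 with a pseudocount of 5 RPPM and ran from 81 (without KO nB replicate 1) to 138 with 1 library left out. Against nB alone it ran from 88 to 158 with 1 library left out, lowest again without KO nB replicate 1, and against BMPC alone all 19 alternatives stayed within 1.5 times of 158. The number called between KO nB and KO BMPC, 5, was 9 with DESeq2, 15 with each edgeR test, 2 without a trend, 3 with quantile normalization, and 1 to 7 with 1 library left out. The number called between KO and C, 4, was 10 at an adjusted p of at most 0.05, 1 with DESeq2, 8 with the edgeR likelihood ratio test, 0 without a trend, 1 with a pseudocount of 0.1 or of 5 RPPM, and 0 to 6 with 1 library left out (0 without C GCB replicate M1). With the replicate number as a block it was 3; with 2 pairs, the labels do not show that the numbers pair the samples. No paired analysis was possible for the contrasts among KO cell types because their libraries share no pairing in the labels. The promoter count stayed between 19 and 33 and the count meeting the rule in KO between 73 and 91. Over whole regions instead of the middle 300 bases, the share of the set minus that of all non-promoter regions was 15.6 percentage points for the E-box, -0.18 for the octamer, 17.0 for RUNX, 2.40 for CTCF, 8.61 for STAT and 2.86 for CpG, and in the middle 200 bases MEF2, STAT and EBF1 turned direction, to -0.75, -1.45 and -0.66. The regions that met the rest of the rule were of like width to the set. Over whole regions, E-box shares were 46.0% in the set and 39.7% in those. The other pairs were 55.5% and 47.3% for RUNX, 24.2% and 19.6% for STAT, and 6.16% and 6.86% for the octamer. For CTCF they were 12.8% and 17.7%, and for CpG 98.1% and 99.2%. The cause of the moves between windows was not tested. Of 722 values for 38 named regions under the alternatives, 679 kept their call, 32 lost it, 11 gained one and 0 reversed. Depth limits the closed levels, since the median region held 5 to 10 reads in a GCB library.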
